A study of Mus musculus with 28 samples.

Results

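The muscle contractile genes described here are 10 genes of the count matrix, chosen by name: Acta1, Ckm, Myh1, Myh2, Myh4, Tnnt3 and Mylpf of skeletal muscle, Acta2 and Tagln of smooth muscle, and Des, which muscle of every kind makes. They are 10 of the 28244 genes counted by poly(A) RNA-seq in 28 mouse samples of 11 groups. The labels give C57BL/6 as the strain of all samples, whereas the study's methods give CD1, or CD1 mixed with C3H, as the background of the wild-type mice to which its transgenic lines were bred. The study asked whether neural stem cells (NSCs) exist outside the central nervous system, and compared peripheral NSC (pNSC) lines with brain NSC lines, with neural crest stem cells (NCSCs) and with cells of the tissues they came from.

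In the Nes-GFP experiment, GFP driven by Nestin regulatory elements marked the cells from which pNSC lines were started. It held tail pNSCs from mice of postnatal day 1 to 5 (n = 2) and lung pNSCs from mice of 4 to 6 weeks (n = 2), beside brain NSCs (n = 2), tail cells (n = 2) and lung cells (n = 2), whose labels name no reporter. The Sox2-GFP experiment held lung pNSCs from mice of postnatal day 1 to 5 (n = 3) and brain NSCs (n = 3), set against the same 2 lung cell samples. The Wnt1-Cre experiment crossed Wnt1-Cre with R26-mTmG mice, so that neural crest progeny turn green and other cells stay red. It held tail pNSCs (n = 3) and pNSCs of the dorsal root ganglion (DRG; n = 3), both from mice of postnatal day 1 to 5, brain NSCs (n = 3), and NCSCs from the DRG of adult wild-type mice (n = 3), so the pNSCs and NCSCs also differ in age. The ages of the brain NSC mice and of the tail and lung cell donors, and the culture state of tail and lung cells, were not given per sample. All pNSC lines grew from clusters picked by hand after culture with EGF and bFGF, and such clusters are usually clonal, so a group may stand for 1 or a few founder cells, and Wnt1-Cre may not mark every cell of neural crest origin. The study calls samples of a group biological replicates, reports that most of its experiments were repeated independently, and took its brain NSCs mostly from the mice that gave the pNSCs. The labels do not say which samples share an animal or a culture, so p-values measure only the spread between these samples, which may be technical.

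Muscle shortens when myosin motors of the thick filament pull on actin of the thin filament. In skeletal and cardiac muscle both filaments are packed into sarcomeres, which calcium switches on through troponin, while smooth muscle, as in vessel and airway walls, has no sarcomeres and is switched on by phosphorylation of myosin light chains. Neural stem cells do not contract, and build their cytoskeleton from other actins, non-muscle myosins and the intermediate filament vimentin.

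Total counts per sample ran from 9808246 to 22637031. Summed levels of 7 NSC markers were 4535 to 6510 cpm (counts scaled to library size) as means of the pNSC and brain NSC groups. They were 1608 cpm in NCSCs, 301 cpm in lung cells and 88.4 cpm in tail cells. The 5 neural crest and Schwann markers summed to 3377 cpm in NCSCs and to 3.84 to 70.2 cpm as means of the pNSC and brain NSC groups. In tail cells they summed to 773 cpm and in lung cells to 11.5 cpm. The lines thus carried the markers of their label. Tail cells were led by 6 fibroblast markers (73251 cpm) and lung cells by 5 epithelial markers (11028 cpm), with 4282 cpm of 4 leukocyte markers in lung cells. Of the NCSC samples, replicate 3 stood apart from the other 2, and the tests of the 10 genes that rest on NCSCs are given with and without it. Levels below are cpm after trimmed-mean (TMM) scaling over all 28 samples, as mean ± SD, and depth sets the limit: 3 counts, taken as the floor, is at most 0.306 cpm in the shallowest library.

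Most of the 10 genes were high in 1 or both tissues and low in the lines. The 7 skeletal genes summed to 268.5 ± 3.66 cpm (n = 2) in tail cells, 16.9 ± 1.33 cpm (n = 2) in lung cells, and 0.817 to 2.00 cpm as means of the 9 groups of cultured lines. Of the skeletal genes, Ckm was at similar levels in both tissues. Des and Tagln were highest in lung cells. Acta2 was high in both tissues and, alone among the 10, reached over 10 cpm in some of the lines.

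**Figure D1:**
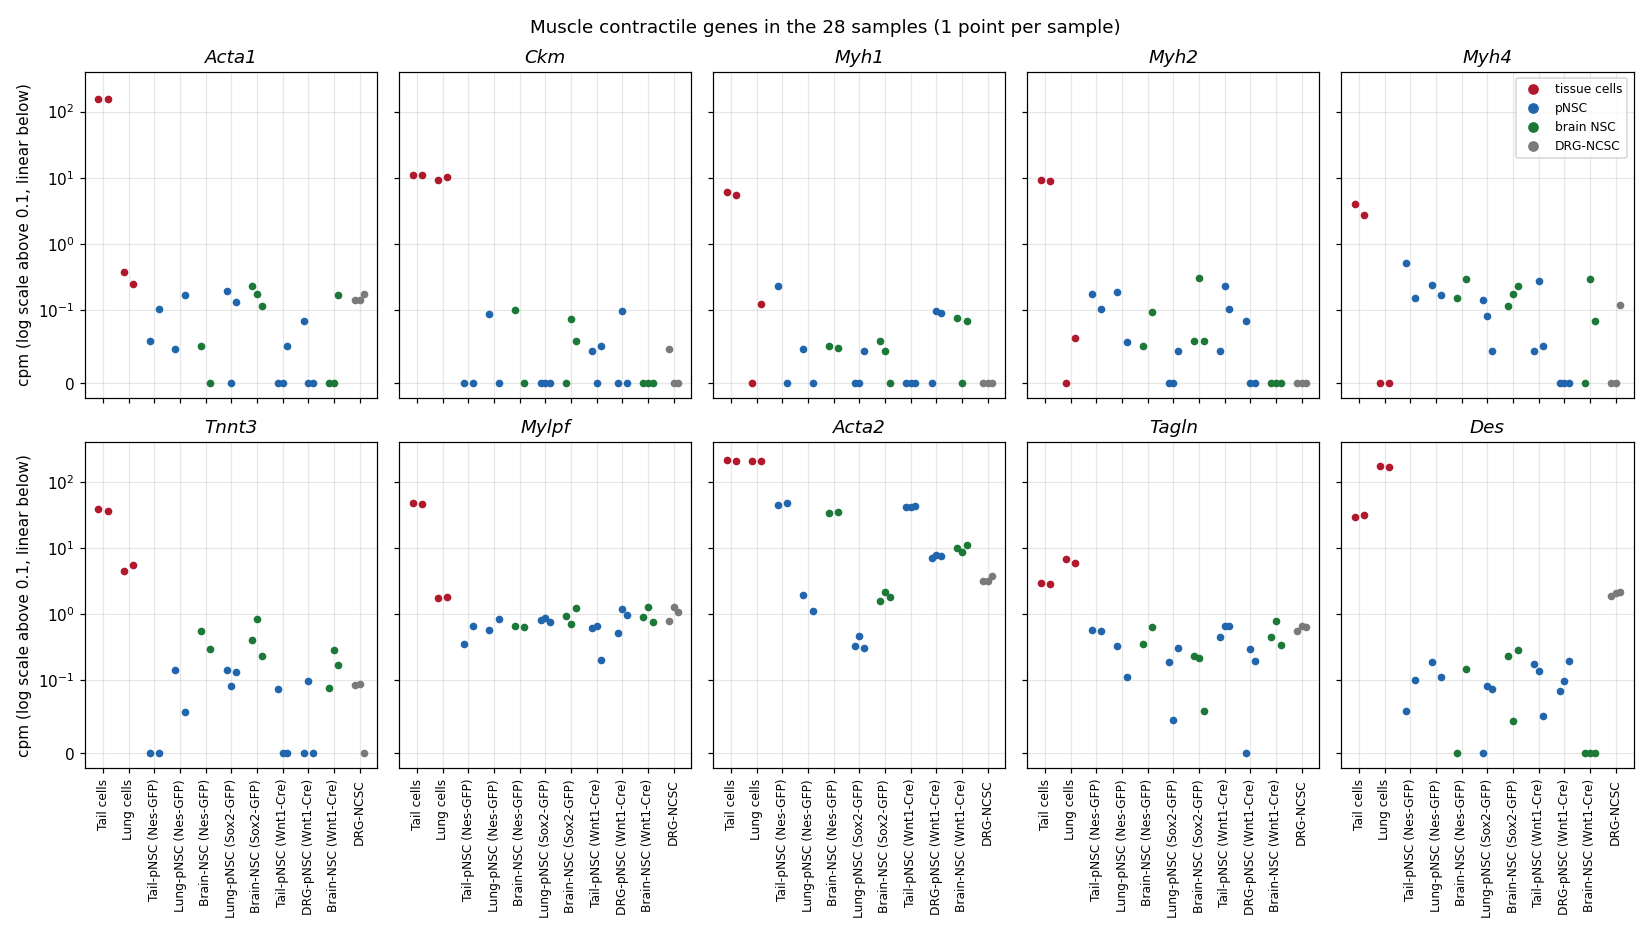
Level of each of the 10 genes in each of the 28 samples, in cpm on an axis that is logarithmic above 0.1 and linear below it, with 1 point per sample and colours for tissue cells, pNSCs, brain NSCs and DRG NCSCs. The 7 skeletal genes stand above the lines in tail cells, Ckm, Tnnt3, Mylpf and, by a small margin, Acta1 also in lung cells (Acta1 at 0.246 and 0.377 cpm against at most 0.232 cpm in a line), and Acta2 is the gene that spreads over the lines.

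The thin filament actin of skeletal muscle was high in tail cells only. Acta1, the actin of the skeletal thin filament (minus strand of chromosome 8, chr8:123891769-123894751, GRCm38), had 2739 and 2436 counts in the 2 tail cell samples, 7 and 4 in lung cells, and 0 to 4 in each of the 24 line samples. Its mean level was 154.7 ± 1.50 cpm in tail cells and 0.312 ± 0.0922 cpm in lung cells, with no overlap between the groups. Tail cells exceeded lung cells 497-fold, with an exact 95% interval of 273 to 981 that covers counting error only, as do all intervals below. On the log2 scale the difference was 8.95 (SE 0.147). The test throughout was edgeR's quasi-likelihood test with Benjamini-Hochberg adjustment over all genes tested, and here its adjusted p was too small to be represented. A gene is counted as called where this adjusted p is under 0.05 and the absolute log2 fold change is at least 1.

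The promoters of the muscle actins are known for CArG boxes, the motif bound by serum response factor, and those of skeletal genes for E-boxes (CANNTG), bound by MyoD-type factors. RefSeq promoter windows (GRCm38.p6) of 300 bases, from 250 before to 50 after the start site, matched 8 of the 10 genes by symbol, without Tnnt3 and Tagln. An exact match to the CArG consensus (a pair of C, a run of A or T, a pair of G), searched on both strands, lay in the windows of Acta1 (first base at position -73) and Myh4 (position -104), and in 1.63% of 32851 windows. CANNTG, searched on both strands, lay in 6 of the 8 windows and in 72.31% of all. TATAAA, searched on the sense strand, lay in 4 of the 8 and in 8.32% of all. The 250 bases before the start site are shown for the 2 genes with an exact match, in capitals, and for Acta2 and Des, which differ from them in level across the groups. The windows of Acta2 and Des held no exact match, and forms that depart from the consensus were not searched. Positions are chr8:123894776-123895025 (minus strand), chr11:67237562-67237811 (plus), chr19:34255374-34255623 (minus) and chr1:75360042-75360291 (plus).
Acta1: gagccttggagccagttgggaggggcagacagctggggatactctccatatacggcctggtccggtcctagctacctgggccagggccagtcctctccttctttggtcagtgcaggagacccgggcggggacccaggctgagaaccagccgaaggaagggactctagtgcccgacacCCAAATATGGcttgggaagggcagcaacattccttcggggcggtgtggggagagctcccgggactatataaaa
Myh4: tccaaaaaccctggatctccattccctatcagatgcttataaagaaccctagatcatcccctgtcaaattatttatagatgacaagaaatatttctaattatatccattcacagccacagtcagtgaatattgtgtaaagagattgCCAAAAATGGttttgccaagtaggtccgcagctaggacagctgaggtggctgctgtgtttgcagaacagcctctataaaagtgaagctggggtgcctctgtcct
Acta2: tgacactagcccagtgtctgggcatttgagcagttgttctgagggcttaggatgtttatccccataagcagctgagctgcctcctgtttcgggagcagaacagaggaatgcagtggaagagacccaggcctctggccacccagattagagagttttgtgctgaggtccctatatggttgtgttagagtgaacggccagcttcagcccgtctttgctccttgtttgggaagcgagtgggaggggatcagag
Des: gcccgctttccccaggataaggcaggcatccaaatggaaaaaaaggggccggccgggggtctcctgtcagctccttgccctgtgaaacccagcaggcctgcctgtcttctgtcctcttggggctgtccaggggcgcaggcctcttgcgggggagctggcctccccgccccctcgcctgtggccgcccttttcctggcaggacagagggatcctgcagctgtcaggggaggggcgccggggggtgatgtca
These matches describe the letters in the windows, and binding was not measured.

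The thick filament genes are the adult fast myosin heavy chains, which set the speed of a fibre. Myh2 (type 2A fibres; chr11:67171027-67197517) had 165 and 139 counts in tail cells, 0 and 1 in lung cells, and at most 7 in any line. Myh1 (type 2X; chr11:67200052-67224575) had 108 and 85 in tail cells, 0 and 2 in lung cells, and at most 4 in any line. Myh4 (type 2B; chr11:67238029-67260446) had 71 and 43 in tail cells, none in lung cells, and at most 9 in any line. In each of the 3, both tail cell samples lay above all 26 other samples. Tail cells exceeded lung cells 295-fold for Myh2 (56.3 to 12533), 93.3-fold for Myh1 (27.4 to 835) and at least 19.4-fold for Myh4, taken against 3 counts per library. The 3 lie side by side on the plus strand of chromosome 11 and share sequence: 26.9%, 26.7% and 18.9% of the 50-base stretches of Myh2, Myh1 and Myh4 recur in another gene, mostly each other and the perinatal Myh8, so reads could be split between them and their separate levels are uncertain. Myh1 and Myh2 also overlap a listed gene on the opposite strand, over 8.11% and 3.32% of their exon bases, and whether counting used strand is not given in the sources used here.

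Mylpf, the regulatory light chain of fast skeletal myosin (chr7:127208890-127214298), had 852 and 712 counts in tail cells (46.7 ± 1.60 cpm), 32 and 29 in lung cells (1.75 ± 0.0451 cpm), and 4 to 27 in the lines. Tail cells exceeded lung cells 26.6-fold (20.7 to 35.0). Mylpf was the only skeletal gene above 3 counts in every line sample, at group means of 0.489 to 1.04 cpm. Tnnt3, the fast troponin T that ties troponin to the thin filament (chr7:142498836-142516009), had 703 and 574 counts in tail cells (38.1 ± 1.93 cpm), 84 and 89 in lung cells (5.00 ± 0.679 cpm), and 0 to 19 in the lines. Tail cells exceeded lung cells 7.61-fold (6.55 to 9.05). For both genes the tail cell, lung cell and line samples formed 3 ranges that did not overlap.

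Ckm, the muscle creatine kinase that rebuilds ATP beside the filaments in skeletal muscle and heart (chr7:19404776-19422841), was not higher in tail cells by the test. It had 194 and 169 counts in tail cells and 174 and 165 in lung cells, or 10.8 ± 0.0536 and 9.76 ± 0.564 cpm. The lines had 0 to 2 counts, and 16 of the 24 had none. The ratio of tail to lung cells was 1.11 (0.958 to 1.30), and the log2 difference of 0.20 (SE 0.156, edgeR adjusted p = 0.235) did not pass the test. A listed gene on the opposite strand shares 15.5% of its exon bases.

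Des, the muscle intermediate filament that links sarcomeres and dense bodies (chr1:75360329-75368579), had 3204 and 2720 counts in lung cells (170.0 ± 3.48 cpm) and 520 and 500 in tail cells (30.6 ± 1.98 cpm). It was 5.56-fold higher in lung cells (5.22 to 5.97), a log2 difference of -2.44 for tail minus lung cells (SE 0.0647, edgeR adjusted p = 3.4e-306). Tagln, the actin-binding transgelin of smooth muscle (minus strand, chr9:45929619-45936058), had 127 and 97 counts in lung cells (6.40 ± 0.609 cpm) and 53 and 44 in tail cells (2.89 ± 0.113 cpm). Its log2 difference was -1.10 (SE 0.232, edgeR adjusted p = 3.2e-06), and the call rests on lung cell replicate 1, without which the difference was -0.99. Acta2, the smooth muscle actin (minus strand, chr19:34241090-34255590), was nearly level between the tissues, at 212.5 ± 7.01 cpm in tail cells and 204.9 ± 1.54 cpm in lung cells. The samples did not overlap, but the log2 difference was 0.10 (SE 0.0380, edgeR adjusted p = 0.0149), far from the threshold of 1.

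In all, tail cells against lung cells gave 6 of the 10 genes higher and 2 lower, where 43.4% of the 16948 genes tested were called (20.5% higher and 22.9% lower). Acta1, Myh1, Myh2 and Myh4 passed the filter on low counts through tail cells alone, and so had to differ. In bulk RNA, more cells of a type and more RNA per cell cannot be told apart. The markers of other cell types moved with the tissue as well: cardiac genes summed to 980.2 ± 13.6 cpm in lung cells and 62.5 ± 2.51 cpm in tail cells, with the atrial myosin Myh6 at 403 and 3.34 cpm. Endothelial markers summed to 3946 and 818 cpm and pericyte markers to 661 and 1206 cpm, all detected in both tissues. Their part in the differences of Ckm, Des and Tagln was not tested.

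Levels of different genes can be set side by side only per length. In tail cells the order per kilobase of exon sequence began with Acta1 (101 ± 0.978 cpm per kb) and Acta2 (96.8 ± 3.19 cpm per kb), followed by Mylpf (43.9 ± 1.51), Tnnt3 (24.1 ± 1.22), Des (8.14 ± 0.528), Ckm (3.72 ± 0.0184) and Tagln (1.46 ± 0.0567), with Myh2, Myh1 and Myh4 last at 1.27, 0.905 and 0.560 cpm per kb. In lung cells Acta2 (93.3 ± 0.700) and Des (45.3 ± 0.926) led, and Ckm (3.35 ± 0.194), Tagln (3.22 ± 0.306) and Tnnt3 (3.16 ± 0.429) lay within their spread of each other. Tagln was thus low beside Acta2 in both tissues. It shares 5.43% of its exon bases with Pcsk7 on the opposite strand, and the effect of this on its count was not tested.

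**Figure D2:**
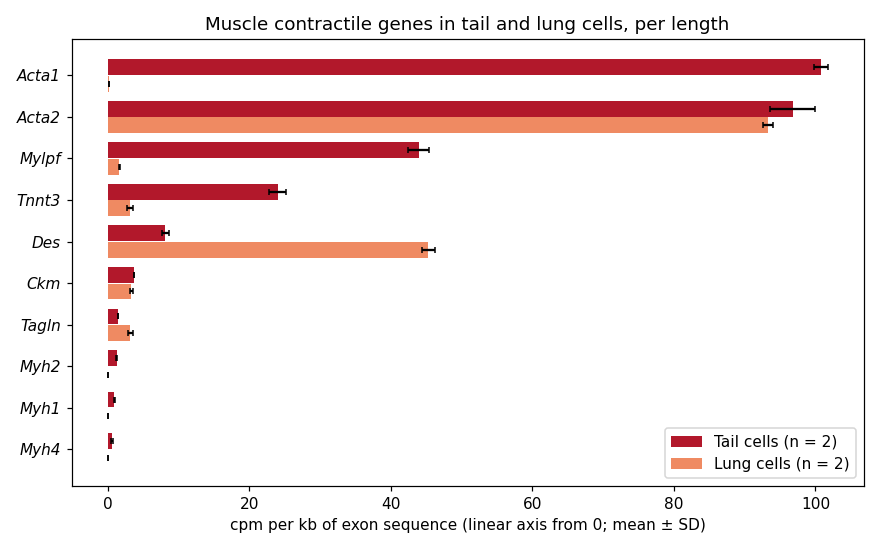
Mean level of each of the 10 genes in tail cells and lung cells (n = 2 each), in cpm per kilobase of exon sequence on a linear axis from 0, with bars of 1 SD. Acta1 and Acta2 lead in tail cells, at 101 and 96.8 cpm per kb, and Acta2 and Des in lung cells, at 93.3 and 45.3 cpm per kb.

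Against cells of the tissue they came from, the Nes-GFP tail pNSCs had less of all 10 genes, and the lung pNSCs less of 6 in each experiment. The Wnt1-Cre lines have no tissue cells to be compared with. Nes-GFP tail pNSCs were lower than tail cells in 10 of the 10 genes, where 46.7% of genes tested were called and 32.6% were lower. Of these, Acta1, Myh1, Myh2 and Myh4 had again passed the filter through tail cells alone. Ckm, Tnnt3 and Des had passed it through tail and lung cells alone, so they too had to be lower. Acta1 fell from 154.7 cpm to 0.0797 cpm (3 counts over the 2 samples), a ratio of 1941 with an interval of 652 to 9252. Ckm and Tnnt3 had no count in tail pNSCs, so tail cells were at least 66.6-fold and at least 233.9-fold higher. Mylpf was 92.6-fold lower (58.1 to 152), Des 384-fold lower (128 to 1826), and Myh1, Myh2 and Myh4 were 49.9, 66.1 and 10.0-fold lower. The smallest differences were those of Tagln (5.09-fold, 3.16 to 8.62) and Acta2 (4.58-fold, 4.34 to 4.82; log2 difference -2.29, SE 0.0461). The list of 24 skeletal sarcomere genes that are not among the 10 went the same way, with 22 of 22 tested lower. Some of these, such as Myh3 and Mybpc1, had passed the filter through tail cells alone and had to be lower.

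Nes-GFP lung pNSCs were lower than lung cells in 6 genes and higher in 1 of the 10, where 55% of genes tested were called, 34.9% lower and 20.2% higher. Of the genes called lower, Ckm, Tnnt3 and Des had passed the filter through tail and lung cells alone and had to be lower. Acta2 was 134-fold lower (102 to 172), Des 1130.4-fold (508 to 3019), Ckm 207-fold (52.2 to 1576), Tnnt3 50.6-fold (18.6 to 180), Tagln 29.0-fold (14.4 to 61.8) and Mylpf 2.50-fold (1.59 to 4.15). Acta1, at 11 counts in lung cells and 4 in the line, did not pass (log2 difference -1.61, edgeR adjusted p = 0.0523). Myh4 was called higher on 8 counts against 0, at least 1.17-fold against the floor of 3 counts per library, and lost the call when either lung cell sample was left out (highest adjusted p of edgeR 0.0650).

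Sox2-GFP lung pNSCs against the same lung cells gave 6 lower of the 6 genes tested, where 56.3% of genes were called and 34.9% were lower. Acta1, Myh1, Myh2 and Myh4 were not tested there, and Ckm, Tnnt3, Tagln and Des passed the filter through lung cells alone. Acta2 was 558-fold lower (376 to 873), Des 2832-fold (1087 to 10227), Tnnt3 40.9-fold (20.2 to 95.7), Tagln 35.3-fold (19.7 to 69.0) and Mylpf 2.16-fold (1.47 to 3.19), and Ckm, with no count in the 3 line samples, at least 71.0-fold lower. Both lung comparisons use the same 2 lung cell samples, so they are not independent of each other.

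Among the lines, 6 of the 7 skeletal genes stayed near the limit of detection, and Mylpf, at 4 to 27 counts, lay above it in every sample. Over the 24 line samples Acta1 had at most 3 counts in 21, Ckm in 24, Myh1 in 23, Myh2 in 21, Myh4 in 18 and Tnnt3 in 19. Des had at most 3 counts in 17, and its highest values were those of NCSCs, at 37 to 43 counts and 1.90 to 2.17 cpm. The highest single values of the 6 skeletal genes were 19 counts of Tnnt3 in Sox2-GFP brain NSC replicate 2 (0.827 cpm), 11 counts of Tnnt3 in Nes-GFP brain NSC replicate 1 (0.551 cpm) and 9 counts of Myh4 in Nes-GFP tail pNSC replicate 1 (0.519 cpm). The 5 epithelial markers summed to 0.0236 to 0.375 cpm as means of the pNSC and brain NSC groups.

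Acta2 was the exception. Its order over the groups below the tissues was Nes-GFP tail pNSCs (44.3 and 48.6 cpm), Wnt1-Cre tail pNSCs (41.1, 42.0 and 43.0), Nes-GFP brain NSCs (33.7 and 34.6), Wnt1-Cre brain NSCs (10.1, 8.78 and 11.2), DRG pNSCs (7.05, 7.77 and 7.61), NCSCs (3.20, 3.13 and 3.81), Sox2-GFP brain NSCs (1.56, 2.13 and 1.79), Nes-GFP lung pNSCs (1.94 and 1.12) and Sox2-GFP lung pNSCs (0.333, 0.461 and 0.308). Of the neighbours in this order, Sox2-GFP brain NSCs and Nes-GFP lung pNSCs overlapped and all others did not. Both groups of tail pNSCs were high, both groups of lung pNSCs low, and the 3 groups of brain NSCs spread from 1.83 ± 0.287 to 34.2 ± 0.591 cpm.

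**Figure D3:**
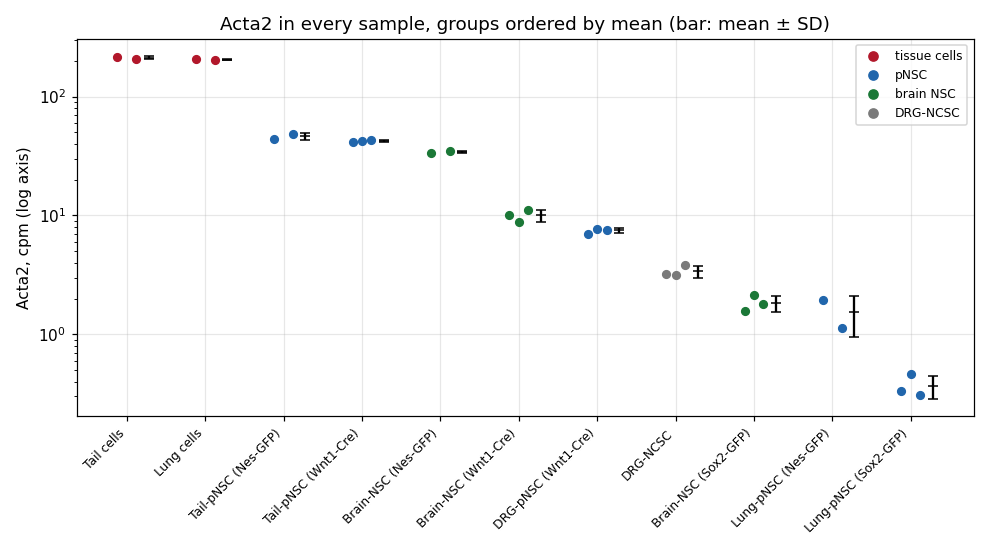
Acta2 in each of the 28 samples, in cpm on a logarithmic axis, with 1 point per sample, bars of mean ± SD beside them, and groups ordered by their mean. Tail pNSCs lie at 41.1 to 48.6 cpm in both mouse lines, lung pNSCs at 0.308 to 1.94 cpm, and brain NSCs at 1.56 to 34.6 cpm.

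Within the Nes-GFP experiment, tail pNSCs differed from brain NSCs in Acta2 by a log2 difference of 0.42 (SE 0.0589, edgeR adjusted p = 5.0e-12), or 1.36-fold (1.27 to 1.46), under the threshold for a call. Of the 10 genes, 1 was called lower and none higher, where 10.9% of genes tested were called (4.31% higher and 6.59% lower), a share near the background. The gene called was Tnnt3, with 0 counts in both tail pNSC samples and 11 and 6 in brain NSCs, at least 2.58-fold lower (edgeR adjusted p = 6.2e-05). In a fit of these 2 groups alone Tnnt3 fell under the count filter and none of the 3 genes tested was called.

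Nes-GFP lung pNSCs had 22.4-fold less Acta2 than brain NSCs (16.9 to 28.7; log2 difference -4.47, SE 0.121, edgeR adjusted p = 3.6e-292). The counts were 41 and 20 against 673 and 715. Tnnt3 was called lower too, at 3 and 1 counts against 11 and 6 (ratio 4.26, 1.33 to 16.7; edgeR adjusted p = 0.0241), but not without brain NSC replicate 1 or lung pNSC replicate 2, where its adjusted p reached 0.260. These were 2 of the 10 genes, where 8.71% of genes were called (4.56% higher and 4.15% lower). Tail pNSCs against lung pNSCs of the same experiment gave 1 of 10, where 12.9% were called (5% higher and 7.86% lower): Acta2, 30.4-fold higher in tail pNSCs (23.1 to 39.1; log2 difference 4.89, SE 0.114).

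In the Sox2-GFP experiment lung pNSCs were again lower than brain NSCs, at 7, 10 and 7 counts of Acta2 against 27, 49 and 31. The ratio was 4.98 (3.23 to 8.26) and the log2 difference -2.30 (SE 0.285, edgeR adjusted p = 2.4e-15). Tnnt3 was called as well, at 3, 2 and 3 counts against 7, 19 and 4 (log2 difference -2.01, SE 0.548, edgeR adjusted p = 0.00047), and lost the call without brain NSC replicate 2 (adjusted p = 0.0946). These were 2 of the 6 genes tested, where 15.7% of genes were called (5.76% higher and 9.99% lower), and a fit of the 2 groups alone called 1. Markers of other cell types also differed. The 6 fibroblast markers summed to 23.1 ± 1.54 cpm in Sox2-GFP lung pNSCs and 97.8 ± 3.26 cpm in their brain NSCs. Of these, 2 were called lower (Col3a1 and Pdgfra) and 1 higher (Col1a1). The 5 neural crest and Schwann markers summed to 10.6 ± 0.428 cpm in Sox2-GFP lung pNSCs and 70.2 ± 2.54 cpm in their brain NSCs. Of the 4 tested, 2 were called lower and none higher. In the Nes-GFP experiment the fibroblast sums of lung pNSCs and brain NSCs were 8.42 ± 1.70 and 8.95 ± 1.45 cpm. The part of such cells in the Acta2 differences was not tested.

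In the Wnt1-Cre experiment 3 of the 10 genes could be tested, Acta2, Mylpf and Des. Tail pNSCs had 932, 908 and 850 counts of Acta2 and brain NSCs 113, 91 and 132, with no overlap after scaling. The ratio was 4.20 (3.72 to 4.68) and the log2 difference 2.06 (SE 0.0826, edgeR adjusted p = 5.2e-13). DRG pNSCs, at 83, 79 and 79 counts, lay 1.34-fold below brain NSCs (1.14 to 1.60; log2 difference -0.43, SE 0.113, edgeR adjusted p = 0.00468), short of a call. Tail pNSCs exceeded DRG pNSCs 5.62-fold (4.94 to 6.46; log2 difference 2.49, SE 0.0880, edgeR adjusted p = 9.3e-14). The counts of genes called were 2 of 3 for tail pNSCs against brain NSCs (18.2% of all genes, 9.16% higher and 9.05% lower), 1 of 3 for DRG pNSCs against brain NSCs (9.53%, with 3.12% higher and 6.41% lower) and 1 of 3 for tail against DRG pNSCs (18%, with 10.4% higher and 7.61% lower).

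The other calls against brain NSCs in that experiment were of Des, which had 0 counts in the 3 brain NSC samples, 4, 3 and 1 in tail pNSCs and 1, 1 and 2 in DRG pNSCs. No bound on the fold can be given at these counts. Depth differed too: total counts were 9846360 to 11315870 in the brain NSC libraries and 19648349 to 22548268 in the tail pNSC libraries. The call in DRG pNSCs (edgeR adjusted p = 0.0394) was lost on leaving out any 1 of the 6 samples, with DESeq2, without the filter and in 1 fit over all 28 samples. The call in tail pNSCs (edgeR adjusted p = 0.0178) was lost without brain NSC replicate 3 and with DESeq2 (adjusted p = 0.06). Des was thus at or near the floor in both.

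NCSCs carried less Acta2 and more Des than the other lines of the experiment. Their Acta2 counts of 69, 66 and 65 gave 3.38 ± 0.376 cpm, 2.96-fold below brain NSCs (2.52 to 3.60; log2 difference -1.57, SE 0.117, edgeR adjusted p = 9.5e-10). Tail pNSCs exceeded NCSCs 12.4-fold (10.9 to 14.5; log2 difference 3.63, edgeR adjusted p = 1.01e-16) and DRG pNSCs exceeded them 2.21-fold (1.84 to 2.70; log2 difference 1.14, edgeR adjusted p = 1.9e-07). Without replicate 3 of the NCSCs these log2 differences were -1.66, 3.71 and 1.22, all called.

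Des had 41, 43 and 37 counts in NCSCs, or 2.04 ± 0.136 cpm (n = 3), more than in any of the 21 other line samples, which had at most 5. It passed the filter through NCSCs alone. NCSCs exceeded brain NSCs at least 7.53-fold (edgeR adjusted p = 4.2e-08, and 1.5e-14 without replicate 3), tail pNSCs 16.7-fold (7.98 to 38.4) and DRG pNSCs 16.3-fold (6.24 to 61.1). The log2 differences of tail and DRG pNSCs against NCSCs were -3.95 (SE 0.332) and -3.96 (SE 0.418), and -3.91 and -3.92 without replicate 3. Markers of other cell types were present in NCSCs: all 6 fibroblast markers (3044 ± 370.8 cpm), all 6 pericyte markers (386 ± 24.8 cpm) and all 4 leukocyte markers (603 ± 18.3 cpm) had more than 3 counts in some sample. Of 5 pericyte markers tested, 4 were called higher than in brain NSCs (Abcc9, Cspg4, Pdgfrb, Rgs5) and 1 lower (Notch3), and their sum lay within the group means of the other lines (246 to 520 cpm). Their part in the Des level was not tested.

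Counts of genes called were 2 of 3 for NCSCs against brain NSCs (Des higher, Acta2 lower; 36.9% of all genes, 22.1% higher and 14.8% lower), 3 of 3 for tail pNSCs against NCSCs (37.9%, with 15.3% higher and 22.6% lower) and 2 of 3 for DRG pNSCs against NCSCs (38.3%, with 15.1% higher and 23.3% lower). The third gene in tail pNSCs was Mylpf, at 14, 14 and 4 counts against 17, 27 and 18 in NCSCs (log2 difference -1.06, SE 0.362, edgeR adjusted p = 0.0122). It lost the call without tail pNSC replicate 3 or NCSC replicate 2 (highest adjusted p 0.0630), and kept it without NCSC replicate 3 (log2 difference -1.05, edgeR adjusted p = 0.00632). The counts of 2, 3 and 2 genes were the same without NCSC replicate 3. Des is in each of these counts, and it had to differ, since it passed the filter through NCSCs alone.

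**Figure D4:**
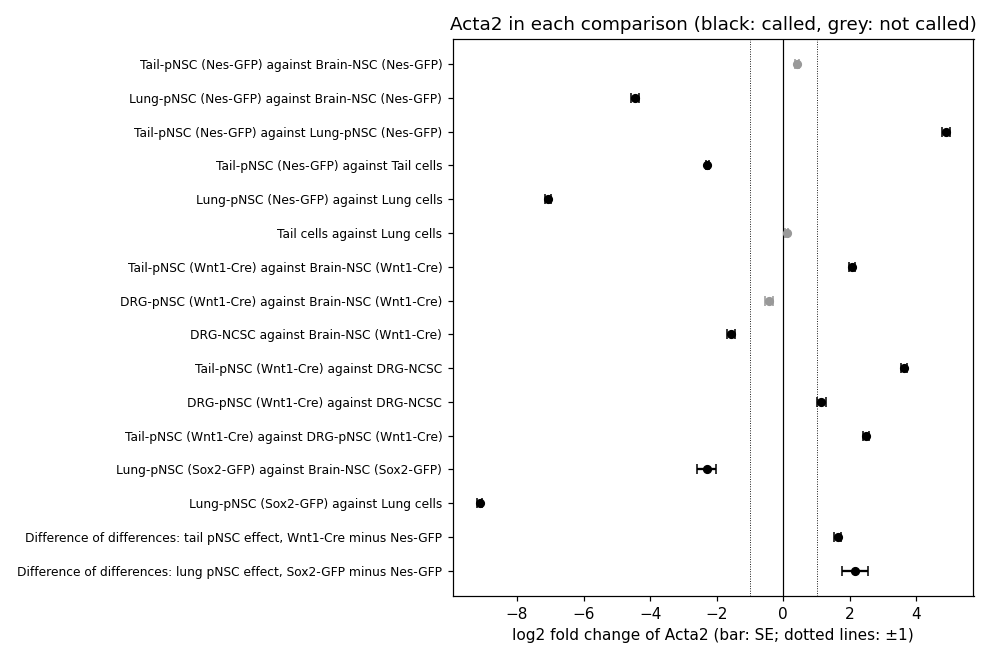
Log2 fold change of Acta2 in the 14 comparisons and in the 2 differences between experiments, with bars of 1 SE, black points for those called and grey points for the others. Lung pNSCs lie on the left against brain NSCs and lung cells, tail pNSCs on the right except against tail cells, where the value is -2.29.

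The tail pNSC and the lung pNSC comparisons were each made in 2 mouse lines, each with its own brain NSCs, so the differences can be compared. The Acta2 difference of tail pNSCs from brain NSCs was larger in Wnt1-Cre than in Nes-GFP mice by 1.63 on the log2 scale (SE 0.108, edgeR adjusted p = 1.2e-15). That of lung pNSCs was smaller in size in Sox2-GFP than in Nes-GFP mice, by 2.16 (SE 0.391, edgeR adjusted p = 1.4e-05). In each, Acta2 was the 1 gene of the 10 called, where 16% of genes were called for tail (8.96% higher and 7.05% lower) and 14.1% for lung (5.89% higher and 8.24% lower). The tail pNSC levels were 46.4 ± 3.04 and 42.0 ± 0.914 cpm in the 2 lines of mice, and the brain NSC levels beneath them 34.2 ± 0.591 and 10.0 ± 1.20 cpm. Mouse line and experiment, and for lung also age, differ together between the pairs and cannot be told apart.

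Of the fibroblast markers, 5 of 6 were called higher than in brain NSCs in Wnt1-Cre tail pNSCs and 3 of 6 in Nes-GFP tail pNSCs, where 9.16% and 4.31% of all genes were called higher. The 6 fibroblast markers summed to 421 ± 5.36 cpm in Wnt1-Cre tail pNSCs, against 33.7 ± 0.373 cpm in their brain NSCs. In DRG pNSCs they summed to 30.7 ± 1.79 cpm, and all 6 were called higher in tail than in DRG pNSCs (10.4% of all genes). In Nes-GFP tail pNSCs they summed to 10.9 ± 0.686 cpm, against 8.95 ± 1.45 cpm in brain NSCs (the samples did not overlap), and those called were Col1a1, Col3a1 and Lum. Most of the 6 were near the floor there: 2 had more than 3 counts in a brain NSC sample, 4 in a tail pNSC sample, and 2 had no count in brain NSCs. Their median log2 difference was 2.51, but 0.31 with genes that lack counts in a group held at their bound. The 6 pericyte markers summed to 429 ± 2.04 cpm in Wnt1-Cre tail pNSCs against 246 ± 3.17 cpm in brain NSCs, with 2 of 5 tested called higher (Notch3, Pdgfrb) and 1 lower (Rgs5). In Nes-GFP tail pNSCs they summed to 262 ± 9.02 cpm against 314 ± 4.23 cpm, with 1 of 6 called lower (Cspg4), none higher, and no count of Pdgfrb. The part of such cells in the Acta2 level was not tested.

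The other genes of contraction place these values among their pathways, from lists of 24 skeletal sarcomere genes, 13 myogenic regulators, 16 smooth muscle genes, 13 cardiac genes and 13 cytoskeletal actin and myosin genes. Counts over these lists stand beside 43.4% of all genes called between the tissues, 20.5% higher in tail cells and 22.9% lower. In tail cells against lung cells 14 of 22 skeletal genes tested rose and 4 fell (Mb, Mybpc2, Tnnc1 and Xirp2), with a median log2 difference of 3.14 beside 0.01 over all genes tested. Some of the skeletal genes, such as Myh3 and Mybpc1, had passed the filter through tail cells alone and had to rise, which also raises this median. Of 12 myogenic regulators 11 rose and none fell, Mef2c only by 1.02 and by 0.96 with RLE size factors. All 13 regulators had more than 3 counts in a tail cell sample, but 4 did in lung cells and 4 in each group of Nes-GFP lines, so most passed the filter through tail cells alone and had to differ. Myog, the factor that starts fibre differentiation, was at 4.22 ± 0.179 cpm in tail cells and had no count in lung cells. The developmental myosins were high there too, the embryonic Myh3 at 78.8 ± 1.51 cpm and the perinatal Myh8 at 95.0 ± 3.72 cpm, against 0.123 and 0.208 cpm in lung cells. Of 13 cardiac genes 11 fell and 1 rose (Myl2), with a median of -3.59 (-3.43 with genes that lack counts in a group held at their bound). Actc1, the cardiac actin, was at 14.4 cpm in tail cells and 161 ± 3.35 cpm in lung cells, and the cardiac troponin Tnnt2 at 6.78 and 96.3 cpm. Of 16 smooth muscle genes 2 rose (Aoc3, and Tpm2 by 1.02, or 0.96 with RLE size factors) and 6 fell (median -0.68), and of 13 cytoskeletal genes 4 fell (median -0.43).

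Against the tissue cells, most genes of the smooth muscle and cardiac lists were lower in the lines, where 32.6% of all genes tested were lower in tail pNSCs and 34.9% in each group of lung pNSCs. In Nes-GFP tail pNSCs 11 of 12 myogenic regulators, 13 of 16 smooth muscle genes and 10 of 13 cardiac genes fell against tail cells and none rose, while of the cytoskeletal list Actn1 and Actn4 fell and Actb rose. In tail pNSCs 9 of the 13 regulators, 2 of 16 smooth muscle genes and 6 of 13 cardiac genes had no count, and genes that passed the filter through a tissue alone, as most regulators did, had to fall. In Nes-GFP lung pNSCs 14 of 16 smooth muscle, 12 of 13 cardiac and 16 of 22 skeletal genes fell against lung cells, and 1 skeletal gene, Myh8, rose. Of the other lists, 2 of 12 myogenic regulators (Chrna1, Msc) fell and 1 (Pax7) rose, and 8 of 13 cytoskeletal genes fell. In Sox2-GFP lung pNSCs 16 of 16 smooth muscle, 12 of 12 cardiac and 14 of 15 skeletal genes fell, and again Myh8 alone of the skeletal list rose. Of the cytoskeletal list 7 of 13 genes fell.

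**Figure D5:**
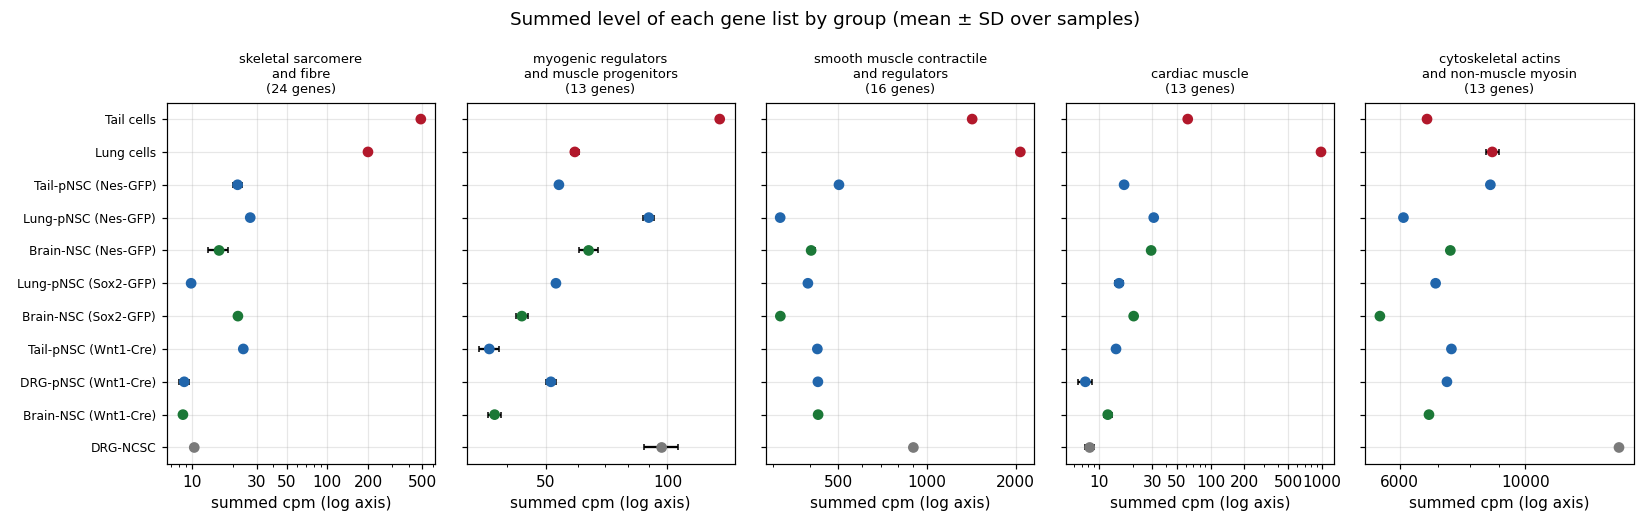
Summed level of each of the 5 gene lists in each group, in cpm on logarithmic axes that differ between panels, as mean ± SD over samples. Tail cells lead the skeletal and myogenic lists and lung cells the smooth muscle and cardiac lists, while NCSCs lead the cytoskeletal list at 14615 cpm.

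A few muscle genes were expressed in the lines themselves. Myh8 had 15.9 ± 1.51 cpm in Nes-GFP tail pNSCs, 13.1 ± 0.576 cpm in Sox2-GFP brain NSCs and 12.7 ± 0.730 cpm in Wnt1-Cre tail pNSCs, and no count in NCSCs. Ttn, the giant spring of the sarcomere, had 17.0 ± 0.518 cpm in Nes-GFP lung pNSCs and at most 1.89 cpm in the other groups of lines. Actc1 reached 9.14 ± 0.895 cpm in Nes-GFP brain NSCs and 0.0350 cpm in NCSCs. Of the myogenic list Mef2c, which neurons also use, was at 34.1 to 83.8 cpm in all lines, and Pax7, which also patterns the dorsal neural tube, was at 6.97 ± 0.819 cpm in DRG pNSCs and 2.41 ± 0.823 cpm in Nes-GFP tail pNSCs.

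Genes of the smooth muscle list were called in both directions. Against brain NSCs, Nes-GFP tail pNSCs had 2 of 16 genes higher (Mylk, Myh11) and 1 lower (Lmod1), Nes-GFP lung pNSCs 2 lower (Myl9, Synpo2) and none higher, Sox2-GFP lung pNSCs 3 lower (Pgm5, Synpo2 and Tpm2, whose call was lost without brain NSC replicate 2, adjusted p of edgeR 0.204) and none higher, and Wnt1-Cre tail pNSCs, of 12 tested, 4 higher (Myh11, Myl9, Pgm5, Actg2) and 1 lower (Mylk). These were 18.8%, 12.5%, 18.8% and 41.7% of the genes tested, beside 10.9%, 8.71%, 15.7% and 18.2% of all genes. Of 12 tested, DRG pNSCs had 2 higher (Myl9, and Myh11, which lost the call without DRG pNSC replicate 1), or 16.7% beside 9.53% of all genes. NCSCs had 4 higher (Actg2, Cald1, Tpm1, Tpm2) and 2 lower (Myl9, Mylk), the same counts as without NCSC replicate 3, or 50% beside 36.9% of all genes. The medians of the first 4 comparisons were -0.05, -0.15, 0.05 and 0.47 (0.00, -0.02, 0.00 and 0.18 with bounds), beside 0.00 over all genes. Myh11, the smooth muscle myosin, was at 16.3 ± 0.217 cpm in Wnt1-Cre tail pNSCs and at most 1.45 cpm in the other groups of lines, against 141 and 246 cpm in tail and lung cells. Mylk, the kinase that switches smooth muscle myosin on, was at 83.9 cpm in Nes-GFP tail pNSCs and 12.3 cpm in Wnt1-Cre tail pNSCs. Tpm1 (105 to 169 cpm) and Cald1 (59.2 to 160 cpm), which non-muscle cells also use, were present in all pNSC and brain NSC groups. NCSCs had 8 of 13 cytoskeletal genes higher than brain NSCs and none lower (7 higher without NCSC replicate 3), where 22.1% of all genes were higher and 14.8% lower, with Vim at 6813 and 2804 cpm and Flna at 1929 and 466 cpm.

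Over the 11 group means, the genes whose log2 levels followed Acta1 most closely, among 13278 genes that reached 10 cpm in some group, were 4833423E24Rik (Pearson r = 0.9997), Krt14 (0.9996), Alox12e, Cyp2g1 and Krt5 (0.9995 each). All 5 were highest in tail cells and under 0.3 cpm in every other group, and Krt14 and Krt5 mark basal epidermis. Those nearest to Acta2 were Myl9 (r = 0.9511), the light chain of smooth muscle myosin, N4bp3 (0.948), Arhgap29 (0.9289), Tcim (0.9207) and Gja5 (0.9194). Myl9 had 33.8 ± 0.626 cpm in Nes-GFP tail pNSCs, 49.7 ± 1.86 cpm in Nes-GFP brain NSCs and 2.90 ± 0.0957 cpm in Nes-GFP lung pNSCs. These likenesses are descriptions over 11 group means. For Acta1 they rest on tail cells, and for Acta2 tail and lung cells, at the top, carry much of them.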

How the data were processed

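Poly(A) RNA of 28 mouse samples was sequenced single-end by the study. Per the labels and the study's methods, the authors aligned reads with HISAT2 to GRCm38, used Cufflinks, and counted reads per gene with HTSeq; the annotation release and the strand setting are not given in the sources used here. The deposited values are raw counts of 28244 genes in 1 table, with no normalization and 0 unused columns. The authors' later quantile normalization was not used.

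Here, genes were filtered within each experiment (filterByExpr of edgeR 4.0.16, minimum count 10, minimum total 15), scaled by TMM and tested with the quasi-likelihood test in R 4.3.3, with Benjamini-Hochberg adjustment over 16948 (Nes-GFP), 14448 (Wnt1-Cre) or 16234 (Sox2-GFP) genes, or 17393 for the 2 differences between experiments, fitted over all 28 samples. A call needed an adjusted p under 0.05 and a log2 fold change of at least 1. Ratios carry exact 95% counting intervals, and a group without counts was set to 3 counts per library. Alternatives were RLE size factors, DESeq2 1.42.0, no filter, other sets of samples in the fit, a replicate block and leaving out each sample. In data simulated for the Nes-GFP tail pNSC comparison (16199 genes), 150 of 150 genes changed at least 4-fold were recovered with 1 false call. The changed genes were drawn from well-counted genes only, and the spread between samples was set to a fixed small value. The recovery therefore says nothing about genes at low counts, such as Tnnt3 in the lines. Replicates of a group differed by more than sampling noise (chi-square over degrees of freedom of at least 1.086), so none held the same reads as another. Repeat libraries of 1 culture could also differ by more than sampling noise. Named genes are the 10 genes, the 3 genes of each list with the highest group mean, genes needed to state a count of 5 or fewer, and the 5 genes most like Acta1 and Acta2 (by Pearson's r of log2(cpm + 1) over 11 group means, among genes of at least 10 cpm in some group). Myog was named after its values were seen. Gene models were GENCODE, and levels per length used their exon length. The members and lists were chosen with earlier results of these data known.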

Additional observations from a re-analysis of the deposited data

Results flagged for a closer look

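The Acta2 difference between tail pNSCs and brain NSCs was not the same in the 2 mouse lines by an interaction test over all 28 samples. It was 1.63 larger on the log2 scale in Wnt1-Cre than in Nes-GFP mice (SE 0.108, edgeR adjusted p = 1.2e-15). The Acta2 difference between lung pNSCs and brain NSCs also differed between mouse lines, by 2.16 on the log2 scale for Sox2-GFP minus Nes-GFP mice (SE 0.391, edgeR adjusted p = 1.4e-05). The gap of 1 sample to the rest of its group was not tested, since no group has more than 3 samples. NCSC replicate 3 stood apart by its counts over all genes, with a chi-square over degrees of freedom of 16.8 and 21.02 against the other 2 samples, and of 2.217 between those.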

How the results depend on the processing

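Acta2 kept its direction and its side of the threshold in all 14 comparisons and both differences between mouse lines, under every alternative run. Counts of the 10 genes called moved more where they rest on few reads. In a fit of only the 2 groups compared, fewer genes pass the filter, and 0 were called for Nes-GFP tail pNSCs against brain NSCs, 1 for Nes-GFP lung pNSCs, 1 for Sox2-GFP lung pNSCs, 1 for Wnt1-Cre tail pNSCs and 0 for DRG pNSCs. DESeq2 called 1 for Wnt1-Cre tail pNSCs and 0 for DRG pNSCs against brain NSCs, and 2 between tail and DRG pNSCs. Without the filter and in 1 fit over 28 samples, 0 were called for DRG pNSCs against brain NSCs, 5 for Wnt1-Cre tail pNSCs against NCSCs and 2 for tail against DRG pNSCs. The cause was not tested.

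Same-numbered samples did not deviate together (correlations of -0.0201 to 0.0569), and the main tests were run unpaired. Such correlations over all genes cannot exclude that same-numbered samples share an animal or a culture, which the labels do not give. With the replicate as a block, 0 genes were called for DRG pNSCs against brain NSCs (Des 4.06, edgeR adjusted p = 0.0608), and Tnnt3 in the difference between lung pNSC effects turned from -0.04 to 0.00598, both near 0. Tagln in that of tail pNSCs turned to 0.00393 in a fit of the 4 groups.

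Leaving out 1 sample gave 1 to 2 genes called for Nes-GFP lung pNSCs against brain NSCs, 1 to 2 for tail against lung pNSCs, 1 to 3 for Wnt1-Cre tail pNSCs and 0 to 1 for DRG pNSCs against brain NSCs, 1 to 2 for tail against DRG pNSCs, and 1 to 2 in both differences between mouse lines. Signs turned only in differences that did not pass the test. Mylpf ranged from -0.90 to 0.0276 (Nes-GFP tail pNSCs), -0.19 to 0.36 (Nes-GFP lung pNSCs), -0.38 to 0.0423 (Sox2-GFP lung pNSCs), -0.41 to 0.15 (DRG pNSCs) and -0.0679 to 0.33 (NCSCs) against brain NSCs, -0.52 to 0.0393 for DRG pNSCs against NCSCs and -0.57 to 0.0159 between lung pNSC effects. Tagln ranged from -0.17 to 0.65 for Nes-GFP tail pNSCs against brain NSCs and -0.49 to 0.36 between tail pNSC effects, and Tnnt3 from -0.58 to 0.73 between lung pNSC effects.

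With RLE size factors the summed level of the 10 genes was 35.3 cpm in Nes-GFP brain NSCs, 557.3 in tail cells, 441.8 in lung cells and 42.6 in Wnt1-Cre tail pNSCs, and by total count alone 465.2 in tail cells and 384.6 in lung cells, against 36.2, 514.5, 398.2 and 43.6 cpm with TMM. Depth limits Acta1, Ckm, the 3 myosins, Tnnt3 and Des in the lines, where most samples had 3 counts or fewer.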
